A study of Mus musculus with 58 samples.

Results

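Whether microglia answer tau in a dish as they do in a brain that has carried it for months was examined by setting 2 tau effects on microglial RNA against each other. The comparison used the 16 libraries of 4 groups out of the 58 samples of the series. Primary microglia of WT mice were kept for 24 h with fibrils of full-length tau at 2 µg/ml (4 cultures) or with vehicle (4 cultures). Adult microglia came from male P301S+ mice of the PS19 line (4 mice) and from male NTG mice, whose genotype is given as WT (4 mice), all about 11 months old. The age was 10.98 months for all 4 PS19 mice and for NTG replicates 3 and 4, and 11.18 months for NTG replicates 1 and 2. The tested quantity was the tau effect in culture (tau fibrils minus vehicle) minus the tau effect in mice (PS19 minus NTG), and it is called the difference below. A positive difference means that the change with tau fibrils lay above the change in PS19 mice on the log2 scale.

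The exposures share no sample and differ in more than tau. The cultured cells came from the forebrains of newborn pups, grew in a mixed glial culture and were shaken off it, and the fibrils were made from recombinant wild-type tau. The PS19 mouse carries human tau with the P301S mutation under the mouse prion promoter, which gives expression mainly in neurons, so its microglia met tau made by neurons. The adult cells were released from the brain with enzymes and captured on beads against CD11b, which other myeloid cells also carry. Culture, age and isolation cannot be told apart between the experiments. Nothing in the labels says which pups or litters each culture came from, so p-values measure the spread between these samples.

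Microglia are the resident macrophages of the brain. When they meet damage or protein aggregates, NF-κB drives cytokine and chemokine genes, and type I interferon acts through its receptor on a large set of antiviral genes. Around plaques and tangles in mice, microglia take on a state called disease-associated microglia (DAM), with higher Itgax, Axl, Clec7a, Cst7 and Lpl and lower homeostatic genes.

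RNA was read with QuantSeq, which primes at the poly(A) tail and samples each transcript at its 3′ end, so a count does not grow with transcript length. Total counts on genes were 1752025 to 2731230 with tau fibrils, 1672052 to 4640645 with vehicle, 3892830 to 7615105 in PS19 mice and 1864382 to 5108921 in NTG mice. Levels are given as CPM, counts scaled to a common library size with TMM, with libraries in replicate order. Reads outside annotated genes were 16.3% to 38.3% of uniquely mapped reads, and PS19 replicate 2 had the 38.3%. Among 24 pairs of replicates none was identical. All 16 libraries were fitted together and 11852 genes passed the filter on low counts. The biological coefficient of variation was 25.1% over the 16 libraries, 17.04% in the cultures and 30.6% in the mice.

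The cell type labels were checked against markers. No count here checks the human transgene. Summed microglia identity markers (10 genes) were 3904 to 4633 CPM with vehicle, 7025 to 8012 with tau fibrils, 32160 to 36040 in NTG and 22530 to 37110 in PS19 mice. The cultures held few transcripts of P2ry12, the purinergic receptor that marks microglia in the brain, at 6.11, 3.92, 9.06 and 7.24 CPM with vehicle against 4064, 5299, 4305 and 4063 CPM in NTG mice. Summed astrocyte markers (9 genes) were 1233 to 1342 CPM with vehicle, 617 to 670.2 with tau fibrils, 827 to 1285 in NTG and 933 to 2070 in PS19 mice. Without Slc1a3, which took most of that sum in the adult cells, they were 966 to 1068 CPM with vehicle, 509 to 536 with tau fibrils, 125 to 299.6 in NTG and 125 to 206 in PS19 mice. No astrocyte marker was at 0 in every library of a group.

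Markers of neurons (11 genes) and of oligodendrocyte precursors (4 genes) were higher in culture than in the adult cells, and lower with tau fibrils than with vehicle. Neuron markers summed to 394 to 491 CPM with vehicle, 201 to 258 with tau fibrils, 41.8 to 59.8 in NTG and 19.4 to 60.04 in PS19 mice. Precursor markers summed to 490.3 to 549.6 CPM with vehicle, 198 to 268 with tau fibrils, 31.2 to 43.4 in NTG and 10.4 to 108 in PS19 mice. Granulocyte markers (7 genes) ran the other way, at 1590 to 2242 CPM in NTG and 419 to 2599 CPM in PS19 mice against at most 7.703 CPM in any culture, where Retnlg and Elane were at 0. In bulk RNA, fewer cells of a type and less RNA per cell cannot be told apart.

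**Figure D1:**
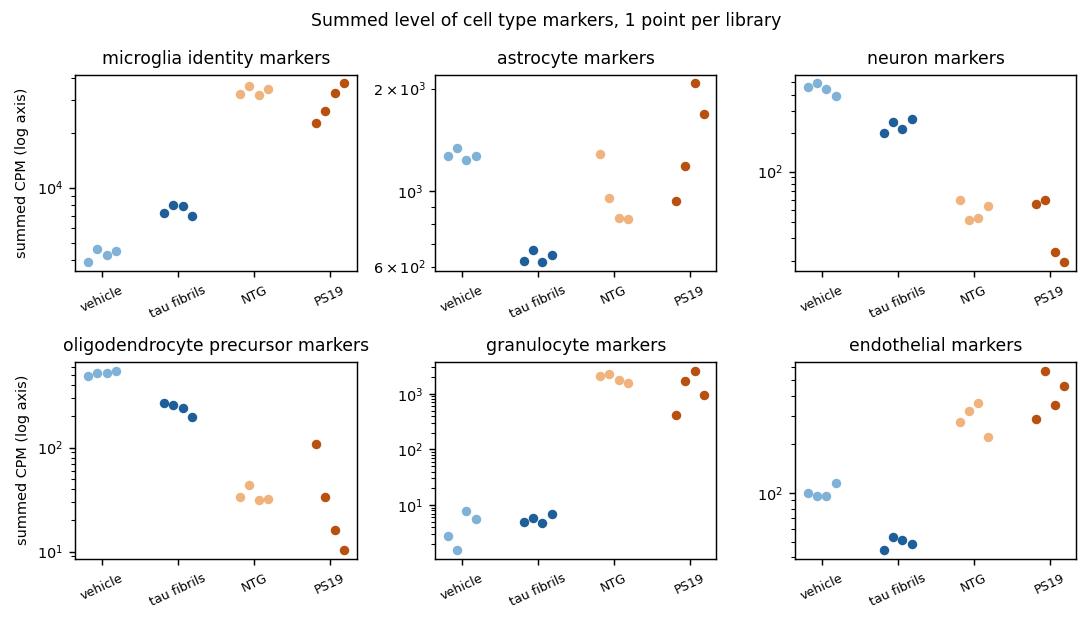
Summed CPM of 6 lists of cell type markers (log axes), 1 point per library in the vehicle, tau fibrils, NTG and PS19 groups. Astrocyte, neuron and precursor markers were lower with tau fibrils than with vehicle in all 4 cultures each, while microglia identity markers were higher, and granulocyte markers were at or below 7.703 CPM in culture.

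The 2 tau effects differed for 957 of 11852 genes (8.07%) at an FDR under 0.05, of which 524 (4.42% of the genes tested) had a positive difference and 433 (3.65%) a negative difference. Scaling moved the balance of the directions. It was 464 positive and 587 negative with scaling by total counts, and 636 and 330 with TMM within each experiment, and the median difference over all genes was -0.09 in the first fit, -0.19 and 0.00 in these. The negative count was also 212 to 275 without any 1 of the tau fibrils or NTG libraries or vehicle replicate 3, and 253 with age in the model, and the positive count was 817 without PS19 replicate 2. In the same fit of 16 libraries 1750 genes (14.8%) passed with tau fibrils, 922 higher (7.78%) and 828 lower (6.99%), and 107 genes (0.903%) passed in PS19 mice, 94 higher (0.793%) and 13 lower (0.110%). The PS19 count moved most. It was 8 genes when the mice were fitted alone, 34 with voom weights per experiment, 21 with age in the model, 53, 59 and 64 without NTG replicates 1, 2 and 4, and 387 without PS19 replicate 2. Only NTG replicates 1 and 2 differed in age from the other mice. With age in the model, PS19 mice were in effect set against NTG replicates 3 and 4. Changes under that setting therefore cannot be assigned to age.

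Most of the difference came from genes that changed in the dish and not detectably in the mice. Of the 957 genes, 485 were called higher only with tau fibrils and 267 lower only with tau fibrils. PS19 mice alone gave 35 genes that were higher and 1 that was lower. A further 16 genes were called in opposite directions, 14 of them lower with tau fibrils and higher in PS19 mice, and 13 rose in both, 12 by more in culture and 1, Cst7, by more in mice. These sets rest on PS19 calls of the joint fit. With the mice fitted alone, where the 8 genes called were Actr3b, Axl, Chst2, Clec7a, Cst7, Itgax, Nes and Sdc3, 4 of the 36 PS19-only genes, 2 of the 16 opposite genes and 2 of the 31 that moved the same way were called. The other 140 passed in the difference and in neither tau effect. Among the 107 genes called in PS19 mice, 47 were also called with tau fibrils (43.9%, against 14.8% of all genes), and 31 of the 47 had the same direction. The 47 are 2.69% of the genes called with tau fibrils. Across the 11852 genes the log2 fold changes of the 2 effects had a Pearson correlation of 0.02 and a Spearman correlation of 0.01, over genes, which are not independent replicates.

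**Figure D2:**
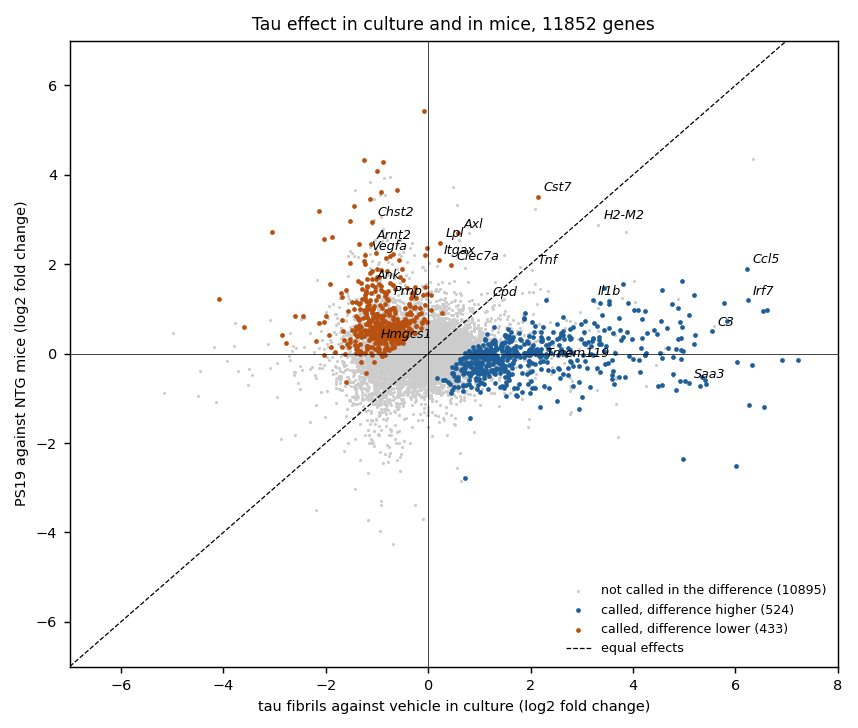
Log2 fold change of each of 11852 genes with tau fibrils against vehicle (x axis) and in PS19 against NTG mice (y axis). Blue points are the 524 genes with a positive difference, which lie to the right of the dashed line, orange points the 433 with a negative difference, grey points the genes that were not called, and the dashed line marks equal effects.

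Far more genes separated the 2 baselines than either tau effect. Vehicle cultures and NTG mice differed at 6915 genes (58.3%), 3584 higher in vehicle (30.2%) and 3331 lower (28.1%). This comparison shares its libraries with the difference, so its values are given only as levels from which each tau effect started.

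**Figure D3:**
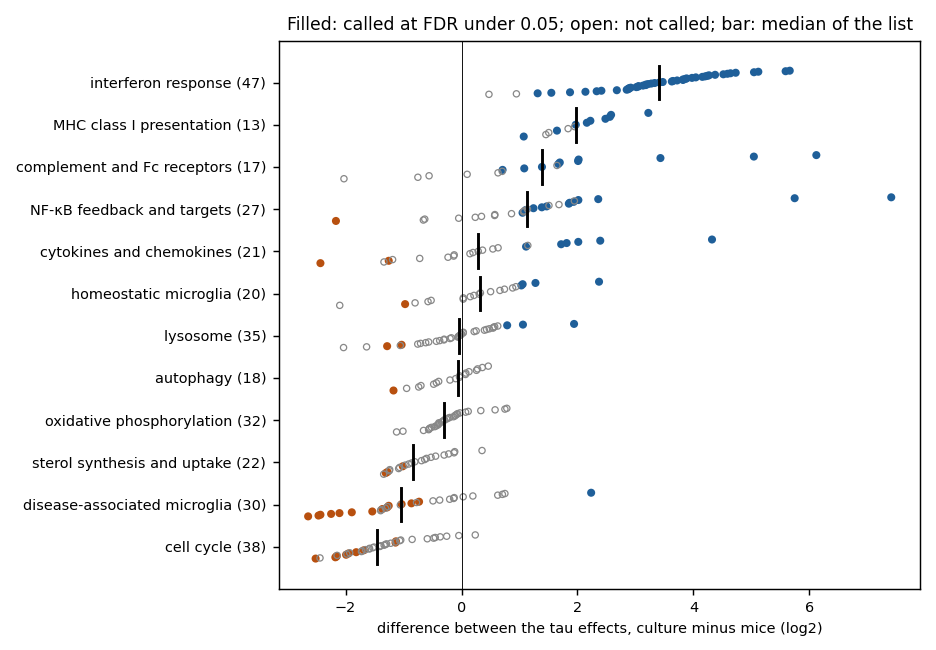
Difference between the tau effects (culture minus mice, log2) for every tested gene of 12 lists, with the number tested in brackets. Filled points passed the test, open points did not, and the black bar is the median of the list, highest for the interferon response at 3.41 and lowest for the cell cycle at -1.46.

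The interferon response carried the clearest separation. Of its 47 tested genes 45 had a called positive difference and 0 a negative one, and all 47 rose with tau fibrils. In PS19 mice 3 (Irf7, Oasl2 and Cxcl10) were called higher (0.793% of all genes were), 0 of them when the mice were fitted alone. There 17 of the 47 had an unadjusted p under 0.05 in the edgeR fit of 16 libraries (12.4% of all genes did), and DESeq2 called 5 higher. The median difference was 3.41 (log2), 3.22 with the 5 genes that had a group at or under 3 counts in every library set at their bound, beside -0.09 over all genes. The median tau effect was 3.76 in culture and 0.36 in mice. Irf7, the transcription factor that amplifies type I interferon, was at 4.44, 3.92, 4.08 and 5.17 CPM with vehicle and 318, 329, 380.4 and 288 CPM with tau fibrils, and at 6.47, 9.51, 7.71 and 4.67 CPM in NTG and 16.2, 19.1, 15.3 and 16.6 CPM in PS19 mice. Neither pair of groups overlapped. Over all genes tested, the groups did not overlap for 26.4% in culture and for 5.6% in mice. In this list 47 genes lay higher without overlap in culture and 7 in mice. The log2 fold change of Irf7 was 6.24 (SE 0.22) in culture and 1.20 (SE 0.20) in mice, a difference of 5.04 (SE 0.30, 95% CI 4.43 to 5.66, FDR = 7.35e-10).

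Isg15, a ubiquitin-like protein that interferon induces, was at 8.33, 4.31, 7.25 and 10.9 CPM with vehicle and 196, 192, 286 and 219 CPM with tau fibrils, and at 15.1, 13.2, 10.2 and 14.6 CPM in NTG and 22.7, 23.2, 11.6 and 10.1 CPM in PS19 mice. The cultures separated widely and the mice overlapped, with a difference of 4.59 (SE 0.42, FDR = 1.72e-07). Ifit3, an antiviral protein that interferon induces, had a difference of 3.82 (SE 0.55, FDR = 6.99e-05). The antiviral GTPase Mx2 and Oas2, which senses double-stranded RNA, did not exceed 3 counts in any vehicle library, so only bounds are given for them. Mx2 was at least 6.66-fold and Oas2 at least 9.04-fold higher with tau fibrils than 3 counts per vehicle library. The call of Oas2 was lost under 3 of 27 alternatives, where its FDR reached 0.155. The 2 genes of the list that were not called in the difference were Oas1a and Cxcl10. Several genes of these families (Ifit, Gbp, Oas, Ifi200) have near-identical copies among which reads can be split, so single values are less certain than the list.

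Summed over the 49 listed genes, the interferon response took 492 to 578 CPM with vehicle, 6180 to 6956 CPM with tau fibrils, 1313 to 1559 CPM in NTG and 1521 to 1812 CPM in PS19 mice. The treated cultures lay above all adult libraries, and the vehicle cultures below them.

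Promoter windows were searched for 5 motifs. Windows of 300 bases (250 before and 50 after the start, RefSeq, GRCm38.p6) were found for 9105 of the 11852 genes and searched on both strands. The core GAAANNGAAA of the interferon-stimulated response element stood in 61.8% of 34 windows of the interferon list, 16.8% of 410 windows of genes with a positive difference, 2.35% of 341 with a negative difference and 3.87% of all. The κB consensus stood in 16.8%, 17.3% and 12.5% of the same 3 sets and in 52.4% of 21 windows of the NF-κB list. An AP-1 site (TGANTCA) stood in 12.7%, 9.09% and 6.0%, a sterol response element (TCACNCCAC) in 1.95%, 2.05% and 1.43%, and the CLEAR core (TCACGTGA) in 0.732%, 2.35% and 2.32%. A match is a description of letters, not of binding. The windows of Isg15 (chr4:156200769-156201068, minus strand) and Ifit3 (chr19:34583279-34583578, plus strand) are shown because both genes rose in culture and did not pass in mice, and those of Itgax (chr7:128129300-128129599, plus strand) and Cst7 (chr2:150570165-150570464, plus strand) because both rose more in mice. Capitals mark the matches. Isg15 holds 3 overlapping interferon cores, Ifit3 holds 2 on the opposite strand and an AP-1 site, and Itgax and Cst7 hold an AP-1 site each and no interferon core. The windows shown do not stand for all genes of their direction. Among other named genes with a negative difference, Spp1 and Vegfa hold an interferon core. Csf1 and Arnt2 hold a κB match and no AP-1 site, while Prnp and a window of Mmp12 hold an AP-1 site.
Isg15: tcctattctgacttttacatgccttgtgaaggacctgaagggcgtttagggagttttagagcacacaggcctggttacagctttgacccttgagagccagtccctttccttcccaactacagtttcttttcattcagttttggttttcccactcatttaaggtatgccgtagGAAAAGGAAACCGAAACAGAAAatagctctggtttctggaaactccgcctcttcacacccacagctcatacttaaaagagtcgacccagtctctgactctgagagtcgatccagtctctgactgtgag
Ifit3: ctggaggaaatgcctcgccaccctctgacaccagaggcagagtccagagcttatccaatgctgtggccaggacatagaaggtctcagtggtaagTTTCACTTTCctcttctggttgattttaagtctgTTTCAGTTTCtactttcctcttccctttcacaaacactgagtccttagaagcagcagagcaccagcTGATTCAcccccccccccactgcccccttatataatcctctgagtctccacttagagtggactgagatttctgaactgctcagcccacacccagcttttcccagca
Itgax: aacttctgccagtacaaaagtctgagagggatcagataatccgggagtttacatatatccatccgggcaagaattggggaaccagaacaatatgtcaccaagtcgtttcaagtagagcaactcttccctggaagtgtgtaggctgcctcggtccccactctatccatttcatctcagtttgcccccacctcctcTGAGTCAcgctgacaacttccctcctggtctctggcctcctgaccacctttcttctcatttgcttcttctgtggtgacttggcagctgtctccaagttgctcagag
Cst7: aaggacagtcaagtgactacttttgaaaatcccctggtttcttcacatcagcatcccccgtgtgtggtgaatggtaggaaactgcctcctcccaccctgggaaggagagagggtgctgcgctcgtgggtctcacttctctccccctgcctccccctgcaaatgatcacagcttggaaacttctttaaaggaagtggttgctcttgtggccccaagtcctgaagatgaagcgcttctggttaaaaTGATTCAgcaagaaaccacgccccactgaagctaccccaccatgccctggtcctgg

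Genes of MHC class I presentation and of complement also had mostly positive differences. In the class I list 9 of 13 genes had a positive difference and 0 a negative one (median 1.97), 11 rose in culture, and edgeR called 0 in PS19 mice, where 3 had an unadjusted p under 0.05 (12.4% of all genes did) and DESeq2 called 2. Psmb8, a subunit of the immunoproteasome, was at 39.98, 46.1, 38.1 and 67.7 CPM with vehicle and 242, 264, 334 and 308 CPM with tau fibrils, and at 205, 243, 185 and 217 CPM in NTG and 215, 214, 225 and 198 CPM in PS19 mice. Only the cultures separated, with a difference of 2.58 (SE 0.25, 95% CI 2.06 to 3.10, FDR = 3.16e-07). Psmb9 of the same complex differed by 3.22 (SE 0.52, FDR = 2.44e-04).

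Among 17 genes of complement and Fc receptors 10 had a positive difference (6 with age in the model) and 0 a negative one (median 1.39), 13 rose and 1 fell with tau fibrils, and 0 passed in PS19 mice by edgeR, where 4 had an unadjusted p under 0.05 and DESeq2 called 1. C3, the central complement component, was at 13.3, 8.62, 15.9 and 10.3 CPM with vehicle and 527, 603, 622 and 439 CPM with tau fibrils, and at 8.62, 7.44, 12.9 and 7.59 CPM in NTG and 13.9, 17.98, 13.9 and 8.801 CPM in PS19 mice. It started alike in both experiments and rose 46.5-fold in culture (difference 5.04, SE 0.35, FDR = 5.31e-09). Cfb, which forms the alternative pathway convertase, did not exceed 3 counts in a vehicle library and was at 33.7, 23.8, 25.98 and 19.02 CPM with tau fibrils, at least 19.9-fold above 3 counts, and at 0 to 1.65 CPM in the mice. Itgam and Fcer1g, receptor subunits of myeloid cells that were chosen after their values were seen, also had positive differences, 2.01 (SE 0.30, FDR = 7.99e-05) and 2.02 (SE 0.24, FDR = 5.52e-06).

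NF-κB genes separated less evenly. Of 27 feedback genes and targets 12 had a positive and 1 a negative difference (median 1.14), 21 rose in culture and 1, Cd83, in PS19 mice. In PS19 mice 8 had an unadjusted p under 0.05 by edgeR (12.4% of all genes did) and DESeq2 called 2 higher. This list, like all gene lists here, was drawn up with earlier results of these samples known, so the direction of none of them is separate evidence. Saa3, an acute-phase protein, was at 108, 74.9, 99.7 and 49.6 CPM with vehicle and 2772, 3213, 2926 and 2354 CPM with tau fibrils, and at 29.1, 15.7, 20.8 and 36.2 CPM in NTG and 18.3, 15.4, 14.1 and 15.3 CPM in PS19 mice, a difference of 5.75 (SE 0.35, 95% CI 5.02 to 6.47, FDR = 7.46e-10). Marco, a scavenger receptor, was at 5.55, 3.14, 2.72 and 2.59 CPM with vehicle and 270.1, 320.3, 257 and 206 CPM with tau fibrils and at 0 to 2.92 CPM in the mice. Nfkbia and Tnfaip3, which switch NF-κB off, were not called, with differences of 0.57 (SE 0.32, FDR = 0.313) and 1.51 (SE 0.72, FDR = 0.228). Nfkbia was already at 4270.2, 2329.6, 5470.3 and 5367 CPM in NTG mice against 310.4, 313, 264 and 273 CPM in vehicle cultures. Cd83, a surface protein of activated antigen-presenting cells, was the exception, at 20.5, 24.3, 46.2 and 33.1 CPM with vehicle, 21.7, 19.3, 17.7 and 10.7 with tau fibrils, 307, 315, 384 and 308 in NTG and 559, 631, 1362 and 766 in PS19 mice, where all 4 PS19 libraries lay above all NTG libraries (difference -2.17, SE 0.39, FDR = 8.60e-04).

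Cytokines and chemokines had calls in both exposures in the fit of 16 libraries. Of 21 genes 11 rose in culture and 11 in mice, and edgeR called 0 lower in either. The difference was called for 8, 6 positive and 2 negative (median 0.29, 0.20 with 1 gene at its bound). The positive count was 3 to 6 across the left-out libraries, with 3 without vehicle replicate 2, and the PS19 count was 0 when the mice were fitted alone, 1 with age in the model and 6 without NTG replicate 1 or 2 and 7 without NTG replicate 4. Tnf was at 2.22, 9.603, 8.61 and 5.17 CPM with vehicle and 23.4, 35.3, 29.2 and 24.9 CPM with tau fibrils, and at 91.1, 59.5, 155 and 161 CPM in NTG and 273, 449, 589 and 408 CPM in PS19 mice. From starting levels that did not overlap, both groups moved up, by 2.03 (SE 0.37) and 1.88 (SE 0.29) on the log2 scale, a difference of 0.15 (SE 0.45, 95% CI -0.80 to 1.09, FDR = 0.899). The interval reaches past 1, so equal effects are not shown.

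Il1b rose in both and by more in culture. It was at 24.99, 16.1, 19.03 and 7.76 CPM with vehicle and 182, 152, 163 and 128 CPM with tau fibrils, and at 113, 153, 139.8 and 164 CPM in NTG and 192, 299.6, 521 and 294 CPM in PS19 mice, so that the treated cultures reached the level of NTG mice. The effects were 3.21 (SE 0.30) and 1.20 (SE 0.26), a difference of 2.01 (SE 0.39, FDR = 0.00146). Ccl5, a chemokine for T cells, went from 50.5, 45.9, 49.8 and 23.3 CPM with vehicle to 3154, 3412, 3343 and 2784 CPM with tau fibrils, and from 4.85, 3.72, 6.87 and 5.84 CPM in NTG to 17.4, 33.9, 18.5 and 13.9 CPM in PS19 mice, a difference of 4.32 (SE 0.42, FDR = 3.18e-07). The negative differences were those of Csf1, the growth factor of microglia, at -2.43 (SE 0.44, FDR = 9.40e-04), and Ccl6, at -1.26 (SE 0.39, FDR = 0.0474). Csf1 was at 40.5, 58.8, 27.6 and 64.6 CPM with vehicle, 22.8, 15.6, 24.2 and 39.99 with tau fibrils, 45.8, 29.8, 54.99 and 47.3 in NTG and 147, 71.4, 191 and 101 in PS19 mice, apart in the mice and overlapping in culture. The call of Ccl6 was lost under 18 of 29 alternatives.

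**Figure D4:**
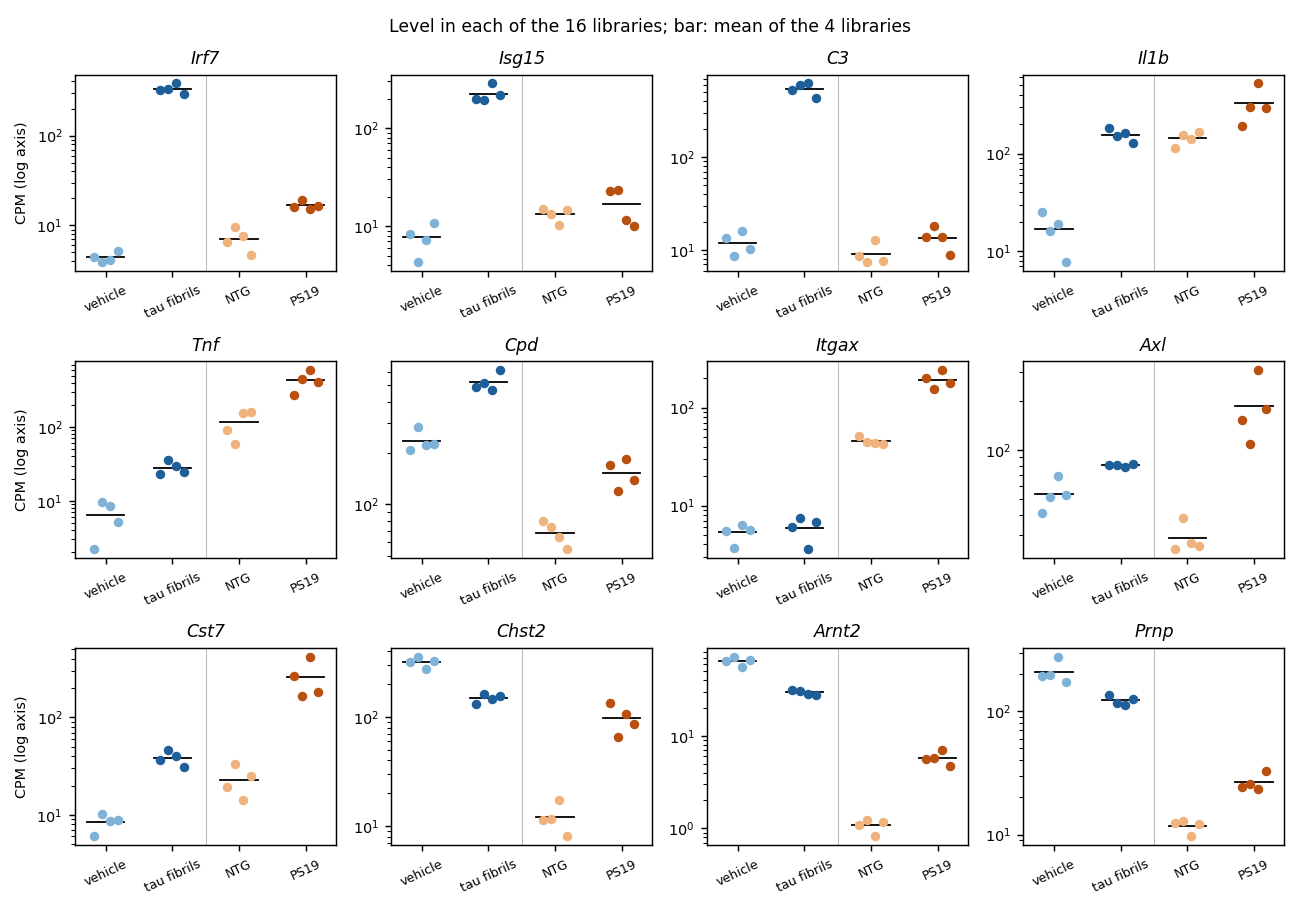
CPM of 12 genes in each of the 16 libraries (log axes, bar at the mean of 4 libraries). Irf7, Isg15 and C3 rise mainly with tau fibrils, Il1b, Tnf, Cpd and Cst7 rise in both experiments, Itgax and Axl rise mainly in PS19 mice, and Chst2, Arnt2 and Prnp fall with tau fibrils and rise in PS19 mice.

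A small set of genes moved the same way in both exposures. The difference was not called for 18 of the 31 genes that moved in the same direction in both exposures, 15 higher and 3 lower. Over all genes the 95% interval of the difference lay within -1 to 1 for 3450 (29.1%), and this held for 142 of the genes called with tau fibrils and 11 of those called in PS19 mice. Cpd, a carboxypeptidase of the secretory pathway, came closest to equal effects among the genes named here. It was at 209, 286, 224 and 225 CPM with vehicle, 491, 518, 472 and 611 with tau fibrils, 80.3, 73.6, 64.4 and 54.9 in NTG and 171, 119, 184 and 138 in PS19 mice, a rise of 2.21-fold and 2.25-fold with a difference of -0.02 (SE 0.24, 95% CI -0.52 to 0.47, FDR = 0.981).

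Sdc3, a heparan sulphate proteoglycan, rose 2.46-fold and 3.05-fold, with a difference of -0.31 (SE 0.29, 95% CI -0.91 to 0.29, FDR = 0.585). Ptger4, a prostaglandin E2 receptor, was at 33.3, 39.98, 27.2 and 30.5 CPM with vehicle, 127, 155, 142 and 125 with tau fibrils, 6.47, 11.2, 13.7 and 15.8 in NTG and 38.7, 26.98, 35.8 and 23.3 in PS19 mice, with a difference of 0.67 (SE 0.31, 95% CI 0.02 to 1.32, FDR = 0.213). Xdh, xanthine dehydrogenase, and H2-M2, an MHC class Ib gene, had differences of 0.54 (SE 0.39, 95% CI -0.28 to 1.35, FDR = 0.466) and 0.43 (SE 0.76, 95% CI -1.15 to 2.01, FDR = 0.801). The intervals of these 3 genes reach past 1, so equal effects are not shown for them. Cxcl10 is likewise unresolved, with a difference of 0.95 (SE 0.49, FDR = 0.271) that was called without NTG replicate 2 (1.35, FDR = 0.0249). Hes1, a target of Notch, fell in both, from 18.9, 19.8, 25.4 and 22.7 CPM with vehicle to 4.89, 6.97, 3.61 and 3.41 with tau fibrils and from 161, 122, 209 and 233 in NTG to 59.3, 93.98, 76.3 and 99.3 in PS19 mice, with no overlap in either, and its difference was -1.05 (SE 0.36, 95% CI -1.80 to -0.29, FDR = 0.0812), an interval that reaches past -1. Cxcl13, a chemokine for B cells, and Il12b, a subunit of interleukin-12, stayed at 3 counts or fewer in the vehicle libraries, and the size of their rise in culture is not given.

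DAM genes leaned to the mice. Of 30 tested genes 13 had a negative difference and 1, Cd52, a positive one (median -1.04). In PS19 mice 11 rose and 0 fell, in culture 5 rose and 5 fell, and the median effect was 0.95 in mice and 0.06 in culture. Their summed level was higher in both, at 54190 to 66240 CPM with vehicle and 72790 to 81000 with tau fibrils. It was 26360 to 33070 CPM in NTG and 36480 to 59070 in PS19 mice. Of the 30 genes 16 were called higher in vehicle cultures than in NTG mice and 8 lower (30.2% and 28.1% of all genes). The 5 that fell in culture were 1 to 3 without any 1 of the tau fibrils, vehicle or NTG libraries or PS19 replicate 4, with 1 without tau fibrils replicate 1. The 5 that rose were 8 without PS19 replicate 2 or 3 and 12 when the cultures were fitted alone, where 7 fell. The count of 13 was 8 without tau fibrils replicate 4, vehicle replicate 3, NTG replicate 3 or 4, or PS19 replicate 3. The PS19 count was 4 when the mice were fitted alone (Itgax, Axl, Clec7a and Cst7), 5 with age in the model, 7 without NTG replicate 1 and 17 without PS19 replicate 2. Itgax (chr7:128129547-128150657, GRCm38), which encodes the integrin CD11c, was at 5.55, 3.72, 6.34 and 5.69 CPM with vehicle and 5.98, 7.38, 3.61 and 6.83 CPM with tau fibrils, and at 51.2, 44.6, 43.3 and 42.05 CPM in NTG and 201, 156, 240.2 and 177 CPM in PS19 mice. The cultures overlapped and the mice did not. Its effect was 0.20 (SE 0.28) in culture and 2.10 (SE 0.19) in mice, a difference of -1.89 (SE 0.34, 95% CI -2.60 to -1.19, FDR = 7.95e-04).

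Axl, a receptor tyrosine kinase, was at 41.1, 51.7, 68.9 and 53.3 CPM with vehicle and 80.4, 80.8, 79.04 and 82.4 CPM with tau fibrils, and at 24.8, 38.03, 26.9 and 25.7 CPM in NTG and 151, 108, 307 and 179 CPM in PS19 mice. It was higher with tau fibrils in 4 of 4 libraries too, but by 1.499-fold (FDR = 0.116) against 6.45-fold in mice, a difference of -2.10 (SE 0.35, FDR = 3.49e-04). Clec7a, the β-glucan receptor dectin-1, rose 3.95-fold in mice and had a difference of -1.54 (SE 0.32, FDR = 0.00275). Lpl, lipoprotein lipase, was already at 1645, 1593, 1726 and 1944 CPM with vehicle, far above the 81.4, 57.5, 72.1 and 52.6 CPM of NTG mice. It was at 2138, 2104, 1976 and 1887 CPM with tau fibrils and 655, 94.6, 541 and 180.1 CPM in PS19 mice, where replicates 2 and 4 were the low ones (difference -2.25, SE 0.52, FDR = 0.00754).

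Cst7, the cathepsin inhibitor cystatin F, rose in both and by more in mice. It was at 6.11, 10.2, 8.61 and 8.79 CPM with vehicle and 36.96, 45.9, 40.1 and 30.7 CPM with tau fibrils, and at 19.4, 33.1, 14.2 and 25.1 CPM in NTG and 266, 167, 416 and 183 CPM in PS19 mice. Neither pair of groups overlapped, and its effects were 2.15 (SE 0.31) and 3.51 (SE 0.29). The difference of -1.37 (SE 0.42, FDR = 0.0479) was not called under 17 of 29 alternatives, where its FDR reached 0.139. Spp1, which encodes osteopontin, fell with tau fibrils from 1097, 1070.4, 1015 and 1581 to 511, 428, 546 and 545 CPM and was at 154, 136, 136 and 153 CPM in NTG and 749.7, 112, 381 and 117 CPM in PS19 mice, high in PS19 replicate 1 (difference -2.47, SE 0.55, FDR = 0.00581). Apoe, Lgals3 and Gpnmb were also highest in that library, at 10363, 3428, 4554 and 2308 CPM for Apoe over the PS19 replicates, and had differences of -0.78 (SE 0.45, FDR = 0.342), -1.31 (SE 0.45, FDR = 0.0767) and -1.39 (SE 0.71, FDR = 0.26). Trem2, the receptor on which the full DAM state depends, was called in neither effect, with a difference of -0.13 (SE 0.20, 95% CI -0.55 to 0.29, FDR = 0.78). Cd52, a small surface glycoprotein, was at 172, 183, 162 and 236 CPM with vehicle and 1186, 1252, 1784 and 1107 CPM with tau fibrils, and at 374, 501, 309 and 401 CPM in NTG and 535, 706, 704 and 436 CPM in PS19 mice, a difference of 2.24 (SE 0.29, FDR = 1.41e-05).

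**Figure D5:**
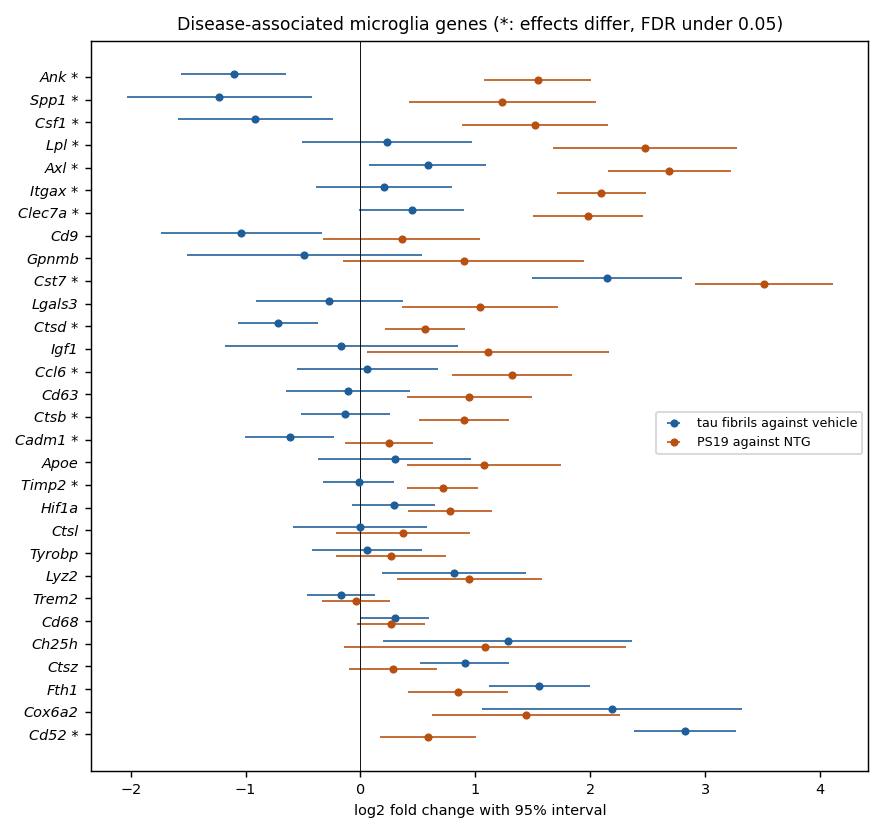
Log2 fold change with tau fibrils and in PS19 mice, with 95% confidence intervals, for the 30 tested genes of the DAM list in order of the difference. The PS19 effect lies to the right of the culture effect for the 13 genes with a called negative difference, and Cd52 shows the reverse.

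Genes with opposite calls were few, and most of their PS19 calls were lost when the mice were fitted alone. The 14 called lower with tau fibrils and higher in PS19 mice were Minar1, Chst2, Arnt2, Vegfa, Egln3, Ank, Mmp12, Gm13889, Nes, Sulf2, Prnp, Mt1, Ephx1 and Pea15a, of which 2 (Chst2 and Nes) were called with the mice fitted alone and 13 were tested there. Dock10 and Tent5a went the other way. Chst2 (chr9:95399292-95406722, GRCm38), a sulphotransferase of glycan chains, was at 315, 352, 275 and 326 CPM with vehicle and 131, 161, 145 and 155 CPM with tau fibrils, and at 11.3, 11.6, 17.5 and 8.18 CPM in NTG and 134, 65.6, 106 and 86.4 CPM in PS19 mice. All 4 libraries moved in each experiment, by -1.10 (SE 0.20) and 2.95 (SE 0.23), a difference of -4.05 (SE 0.31, 95% CI -4.68 to -3.41, FDR = 1.32e-08). Arnt2, a partner of hypoxia and xenobiotic factors, was at 64.97, 70.6, 54.8 and 65.1 CPM with vehicle, 31.5, 30.8, 28.1 and 27.3 with tau fibrils, 1.08, 1.24, 0.833 and 1.17 in NTG and 5.58, 5.801, 7.07 and 4.73 in PS19 mice, a difference of -3.57 (SE 0.35, FDR = 4.50e-07). Its NTG libraries lay near 3 counts, so the size of its rise in mice and of this difference is uncertain.

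Mmp12, macrophage elastase, fell from 345, 339, 306 and 361 to 165, 154, 129 and 131 CPM in culture and rose from 7.01, 5.79, 5.42 and 8.18 to 17.4, 15.1, 22.3 and 10.9 CPM in mice, a difference of -2.59 (SE 0.29, FDR = 2.37e-06). Ank, a transporter of pyrophosphate, did the same from 187, 187, 155 and 169.6 to 80.4, 70.5, 80.8 and 93.6 CPM and from 52.3, 42.99, 51.5 and 39.1 to 125, 79.8, 216 and 121 CPM, a difference of -2.65 (SE 0.31, FDR = 5.52e-06). Nes, an intermediate filament of neural progenitors, differed by -2.44 (SE 0.27, FDR = 1.53e-06), Vegfa, the endothelial growth factor, by -3.43 (SE 0.62, FDR = 8.74e-04), and the hypoxia-inducible Egln3 by -2.77 (SE 0.49, FDR = 7.42e-04). Mt1, a metallothionein, differed by -1.77 (SE 0.24, FDR = 2.42e-05). Prnp, the host gene of the promoter that drives the transgene, was at 194, 199, 275 and 174 CPM with vehicle, 135, 118, 113 and 125 with tau fibrils, 12.4, 12.8, 9.79 and 12.3 in NTG and 24.4, 25.8, 23.6 and 33.1 in PS19 mice, a difference of -1.98 (SE 0.26, FDR = 1.66e-05). Mouse Mapt was not called in either effect and differed by -0.48 (SE 0.52, FDR = 0.655). Whether transcripts of the transgene were counted under Prnp was not tested. Nes, Arnt2, Vegfa and Prnp are also expressed outside microglia. The sums of astrocyte, neuron and precursor markers given above were lower with tau fibrils in all 4 cultures and overlapped between PS19 and NTG mice, and their part in these differences was not tested.

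Homeostatic genes split. Of 20 genes 4 (Tmem119, Olfml3, Csf1r and Cx3cr1) had a positive difference and 1, Gpr34, a negative one, with a median of 0.32. In PS19 mice 0 passed by edgeR, 6 had an unadjusted p under 0.05 and DESeq2 called 1 lower. Tmem119, a membrane protein particular to microglia in the brain, was at 13.3, 8.43, 16.8 and 14.5 CPM with vehicle and 58.7, 76.3, 62.4 and 35.6 CPM with tau fibrils, and at 1870.5, 1905, 1563 and 1741 CPM in NTG and 931, 1387, 1689 and 2200.1 CPM in PS19 mice. The rise in culture ended far under the adult level (difference 2.37, SE 0.37, FDR = 1.43e-04). Gpr34, a receptor for lysophosphatidylserine, fell from 29.98, 46.4, 31.7 and 43.9 to 11.96, 12.7, 14.1 and 11.2 CPM in culture, and its difference of -0.97 (SE 0.26, FDR = 0.0217) was lost under 12 of 29 alternatives. P2ry12, a purinergic receptor of resting microglia, was not called, with a difference of 0.66 (SE 0.42, FDR = 0.384).

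Among the 10 identity markers 6 had a positive difference and 0 a negative one (median 1.04), namely Aif1, Tmem119, Itgam, Spi1, Csf1r and Cx3cr1, which all rose with tau fibrils. Aif1, which encodes IBA1, was at 110.5, 181, 104 and 148 CPM with vehicle and 1097, 1303, 1271 and 915 CPM with tau fibrils, and at 1471, 1893, 1034 and 1255 CPM in NTG and 1241, 1479.5, 1223 and 1070.5 CPM in PS19 mice, a difference of 3.24 (SE 0.29, FDR = 1.47e-07). Slc1a3, a glutamate transporter of astrocytes, had the only called difference among 9 astrocyte markers, -1.90 (SE 0.31, FDR = 2.44e-04), although 7 of the 9 fell with tau fibrils. That 7 was 3 to 5 without any 1 of the 4 tau fibrils libraries or vehicle replicate 3. The 6 identity markers rose and the 7 astrocyte markers fell in the same cultures, and the part of cell proportions in either was not tested.

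Lysosomal genes were called in both directions. The few calls among autophagy genes lay near the shares over all genes. Those shares were 14.8% with tau fibrils, 0.903% in PS19 mice and 8.07% in the difference. Of 35 lysosomal genes 7 rose and 1 fell in culture and 3 rose in PS19 mice, and of 18 autophagy genes 0 rose and 2 fell in culture and edgeR called 0 in PS19 mice, where 3 had an unadjusted p under 0.05 and DESeq2 called 0. The 95% interval of the difference lay within -1 to 1 for 20 of 35 lysosomal genes and 9 of 18 autophagy genes, against 29.1% of all genes, which includes genes that moved in neither. Of the lysosomal genes 3 (the cathepsins Ctsc, Ctss and Ctsh) had a positive and 2 (Ctsd and Ctsb) a negative difference. Ctsd, a main aspartic protease of the lysosome, was at 14582, 20148, 16331 and 19263 CPM with vehicle, 9523, 10987, 10723 and 11499 with tau fibrils, 9654, 12448, 9912 and 10064 in NTG and 18696, 14383, 15017 and 14109 in PS19 mice, a fall in culture with a difference of -1.28 (SE 0.24, FDR = 0.00105). Ctsb rose in PS19 mice, from 1852, 2074, 1865 and 1782 to 3814, 2308, 4684 and 3336 CPM, and overlapped in culture (difference -1.03, SE 0.27, FDR = 0.0165). Ctsc, which activates other proteases, rose 4.06-fold in culture and differed by 1.94 (SE 0.30, FDR = 1.76e-04). The calls of Ctss and Ctsb were each lost under 6 of 29 alternatives. Grn, progranulin, rose 2.23-fold in culture, was at 1.65-fold in mice (FDR = 0.0706) and had a difference of 0.43 (SE 0.26, 95% CI -0.11 to 0.98, FDR = 0.364). Lamp1, a lysosomal membrane protein, differed by -0.30 (SE 0.22, 95% CI -0.75 to 0.15, FDR = 0.455). In the autophagy list 1 gene, Map1lc3a, differed, by -1.19 (SE 0.23, FDR = 0.00176).

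Sterol synthesis genes that passed the test fell in culture. Of 22 genes of synthesis and uptake 11 fell with tau fibrils and 0 passed in PS19 mice by edgeR, where 2 had an unadjusted p under 0.05 and DESeq2 called 0. The 11 were 5 or 6 without any 1 of the tau fibrils libraries or vehicle replicate 3. The difference was called negative for 3 (Acat2, Hmgcs1 and Pmvk) and positive for 0, with a median of -0.83. Hmgcs1, an early enzyme of the pathway, was at 839.6, 885, 926 and 801 CPM with vehicle and 462, 474, 380.4 and 363 CPM with tau fibrils, and at 61.4, 62.8, 61.4 and 69.5 CPM in NTG and 85.6, 57.4, 80.3 and 76.4 CPM in PS19 mice, a difference of -1.28 (SE 0.22, FDR = 4.05e-04). The 23 listed genes summed to 2266 to 2528 CPM with vehicle, 1432 to 1505 with tau fibrils and 464 to 504 in NTG mice. The astrocyte marker sum was lower with tau fibrils in the same cultures, and its part was not tested. Of 10 efflux genes 1, Nr1h3 (the oxysterol receptor LXRα), had a positive difference of 2.57 (SE 0.79, FDR = 0.0464), lost under 16 of 28 alternatives.

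Cell cycle genes had the lowest list median, -1.46. Of 38 genes 10 had a negative difference and 0 a positive one, 11 fell with tau fibrils and 1, Mcm6, rose in PS19 mice. The 11 were 4 to 7 without any 1 of the tau fibrils libraries or vehicle replicate 1, 18 without PS19 replicate 1, 25 with the cultures fitted alone and 26 by voom with weights per experiment. The 10 were 3 to 6 without any 1 of the tau fibrils or NTG libraries, vehicle replicates 1, 2 or 3 or PS19 replicate 1, 4 with age in the model and 5 by voom, but 14 without PS19 replicate 2 and 15 without PS19 replicate 3. Cdk1, the mitotic kinase, was at 94.95, 100.2, 92.9 and 126 CPM with vehicle and 49.5, 38.6, 42.6 and 51.2 CPM with tau fibrils, and at 15.6, 16.5, 22.3 and 15.8 CPM in NTG and 74.95, 15.7, 29.3 and 21.2 CPM in PS19 mice. The cultures did not overlap, and PS19 replicate 1 stood apart among the mice (difference -2.18, SE 0.47, FDR = 0.00394). Nusap1, a spindle protein, differed by -2.52 (SE 0.56, FDR = 0.00584), and Mki67, the usual marker of cycling cells, by -1.72 (SE 0.74, FDR = 0.172), which was not called. Which cells of the cultures were cycling was not tested.

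Several lists gave no called difference. Glycolysis (14 genes), oxidative phosphorylation (32 genes) and the oxidative stress response (13 genes) had 0 calls by edgeR, with an unadjusted p under 0.05 for 5, 4 and 3 genes (21.8% of all genes had one) and 1, 0 and 0 calls by DESeq2. For oxidative phosphorylation the interval lay within -1 to 1 for 19 of the 32. Neuron markers (10 genes), oligodendrocyte markers (6), precursor markers (4), monocyte markers (3), granulocyte markers (6) and fibroblast markers (4) also had 0 calls, with 1, 1, 0, 1, 1 and 1 genes under an unadjusted p of 0.05 and 1 call by DESeq2, in the granulocyte list. All 3 monocyte and 5 of the 6 granulocyte genes had a group at or under 3 counts in every library. Their 0 calls therefore say little about the difference. No lymphocyte marker passed the filter. MHC class II presentation (6 genes) had 1 call, H2-Ab1, with a positive difference (FDR = 0.00152). It did not exceed 3 counts in any vehicle library, so no size is given. It was at most 1.11 CPM in any vehicle culture against 184, 185, 152 and 191 CPM in NTG mice. The call was lost by limma-voom (FDR = 0.0539). Immediate early and heat shock genes (22) had 1, Fos at 1.31 (SE 0.37, FDR = 0.0291). Border-associated macrophage markers (7) had 1, Cbr2, positive, and endothelial markers (5) had 2, Pecam1 positive and Flt1 negative. A group was at or under 3 counts in every library for 3 of these 7 and 4 of these 5 genes. The calls of Cbr2, Pecam1 and Fos were lost under 5 of 28, 2 of 28 and 4 of 29 alternatives. Fos, an early activity-induced factor, was at 574, 446, 1035 and 979 CPM in NTG mice against 58.9, 43.9, 39.9 and 34.6 CPM with vehicle.

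The genes with the most positive fitted differences were Ifi213, Ifi206, Marco, Trim30c, Aoah, Asb2, Spns3, Cfb, Ifi209 and Ifitm6, and 8 of these did not exceed 3 counts in any vehicle library, where the fitted size and its rank depend on the prior count. The calls of Ifi213 and Cfb were lost with age in the model (FDR = 0.122 and 0.102). Against 3 counts per vehicle library Aoah, an enzyme that inactivates endotoxin, was at least 38.8-fold and Ifi206 at least 23.5-fold higher with tau fibrils. Aoah was at 49.5, 36.1, 58.8 and 56.1 CPM with tau fibrils and at 4.85, 2.07, 3.33 and 2.34 CPM in NTG and 5.404, 0.5801, 1.56 and 3.42 CPM in PS19 mice, so the groups of mice overlapped. Asb2, a subunit of an E3 ligase, was at 0 in every vehicle library and at 4.89, 3.69, 2.17 and 1.46 CPM with tau fibrils, while NTG mice held 85.1, 68.6, 63.7 and 70.1 CPM. The most negative fitted differences were those of Baiap2l2, Paqr9, Stra6l, Minar1, Clec1a, Ndp, Sox21, Gpc4, Ccn4 and Kcnh2. The call of Ndp was lost under 15 of 28 alternatives and that of Clec1a under 13 of 27. Those of Sox21, Gpc4 and Kcnh2 were lost under 5 of 28, 4 of 28 and 2 of 25. Baiap2l2, Paqr9, Stra6l, Minar1 and Ccn4 kept their calls wherever tested. Minar1 was at 21.7, 22.1, 18.6 and 16.03 CPM with vehicle, 5.44, 2.46, 6.496 and 3.41 with tau fibrils, 1.08, 0.827, 0.833 and 0.584 in NTG and 8.89, 2.61, 17.1 and 2.28 in PS19 mice, where replicates 1 and 3 were the high ones. Its NTG libraries lay near 3 counts, so the size of its difference is uncertain. For Paqr9, Stra6l, Ndp, Sox21, Gpc4 and Kcnh2 no NTG library exceeded 3 counts. Stra6l was at least 1.17-fold higher in PS19 mice than that floor, and no fold is given for the others. Among all 957 genes, 59 (6.17%) had a group at or under 3 counts in every library.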

How the data were processed

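RNA came from cultured and adult mouse microglia, and QuantSeq 3′ libraries were made by the authors. Per the study's methods and the labels, the authors ran the Lexogen QuantSeq pipeline on BlueBee against GRCm38 with GENCODE annotation, and deposited 1 table of whole-number counts per gene for each library. The methods also name RSEM, but the tables hold whole numbers over 47643 genes and 5 closing lines for reads outside genes, which were left out of totals and tests. Gene symbols were matched for 47224 identifiers. The other 24 cortex samples and 18 microglia libraries were not analysed here. Members and gene lists were chosen with earlier results of these data known.

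Counts of the 16 libraries were fitted with edgeR 4.0.16 (R 4.3.3) as 4 groups, with filterByExpr (minimum count 10, total 15), TMM scaling, the quasi-likelihood test and Benjamini-Hochberg adjustment over all genes, called at an FDR of 0.05. The contrast was (tau fibrils minus vehicle) minus (PS19 minus NTG), two-sided. Each SE was back-calculated as the absolute log2 fold change divided by the square root of the F statistic of its test. The 95% CI was built from that SE with the t distribution, so both are approximate. A bound replaces a fold where every library of a group had 3 counts or fewer. Named genes were the 10 most positive and 10 most negative called differences with a mean count of at least 10, up to 10 opposite and 10 alike genes, the 2 highest and 2 lowest called per list, and a panel of known genes, of which 3 are not reported here. DESeq2 1.42.0, limma 3.58.1 (voom), other scalings, filters, thinning, age and leaving out each library were tried. The scripts were tested on simulated data. Genes of near-identical families (Ifit, Oas, Gbp, Ifi200, MHC) may share reads, so their single values are uncertain.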

Additional observations from a re-analysis of the deposited data

Results flagged for a closer look

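The effect of tau was compared between cultures and mice by an interaction term, and 957 genes differed at an FDR of 0.05. Among them were genes called in opposite directions in the separate effects, with differences (culture minus mice, log2) of -5.32 for Minar1, -4.05 for Chst2, -3.57 for Arnt2, -3.43 for Vegfa, -2.77 for Egln3, -2.65 for Ank, -2.59 for Mmp12, -2.56 for Gm13889, -2.44 for Nes, -1.98 for Prnp and -1.77 for Mt1. Minar1 and Arnt2 lay near 3 counts in NTG mice, so the sizes given for them are uncertain. Whether transcripts of the transgene were counted under Prnp was not tested.

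A library far from the other 3 of its group was found in 13 of 384 groups of values examined (3.39%), where chance alone gives about 1 in 20. NTG replicate 3 was apart for Cd83 (384.3 CPM, high), H2-Ab1 (152.3 CPM, low), Cdk1 (22.29 CPM, high) and Prnp (9.79 CPM, low). NTG replicate 2 was high for Ctsd (12448 CPM) and NTG replicate 1 for Gpnmb (155.2 CPM). Vehicle replicate 4 was low for Ccl5 (23.27 CPM) and high for Flt1 (114.3 CPM), and vehicle replicate 3 was high for Ctss (2122 CPM). Tau fibrils replicate 1 was low for Nfkbia (558.2 CPM). Of the library measures, vehicle replicate 2 had more counts than its group (4640645), and the share of reads outside genes was low in tau fibrils replicate 3 (16.3%) and high in PS19 replicate 2 (38.3%).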

How the results depend on the processing

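The number of genes that differed stayed within 1.5 times of 957 in all 29 alternatives (682 to 1276), and none of the called genes tested in an alternative (at least 860 of the 957) changed sign there. The number with a positive difference was 451 to 817 with 1 library left out, the highest without PS19 replicate 2. The number with a negative difference was 253 with age in the model and 212 to 450 with 1 library left out, at 212 to 275 without any 1 of the tau fibrils or NTG libraries or vehicle replicate 3. In those same fits the median over all genes was -0.02 to 0.00, against -0.09 with all 16 libraries. With tau fibrils 3134 genes were called by voom with weights per experiment, and 1184 to 2004 with 1 library left out. In PS19 mice 235 were called by DESeq2, 240 by the likelihood ratio test, 296 without a filter on low counts, 34 by voom with weights, 21 with age and 8 when fitted alone, and 53 to 387 with 1 library left out. Of the medians of the lists, glycolysis turned from -0.22 to 0.043 with age and ranged from -0.28 to 0.0485 with 1 library left out, and precursor markers ranged from -1.50 to 0.0663. The interferon list had 40 to 46 called genes. Of 75 named genes with a called difference 50 were tested in all 29 alternatives, and 44 of the 50 were called in each. Of 24 without a call 18 stayed so where tested. The causes were not tested. The fits with age in effect set PS19 mice against NTG replicates 3 and 4, so their changes cannot be assigned to age. No paired analysis was possible because the labels number no replicates, and the numbers used here are names that tie no culture or mouse of one group to one of another. Depth limits genes near 3 counts, and only bounds or no size are given where every library of a group had 3 counts or fewer.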
